A study of Mus musculus with 8 samples.

Results

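*Tet3* encodes a dioxygenase that oxidises 5-methylcytosine (5mC) to 5-hydroxymethylcytosine (5hmC) and further products, a route by which methylation can be removed from DNA. The CpGs described here are those whose level was higher in bisulphite (BS) libraries of neural precursor cells (NPCs) expressing an shRNA against *Tet3* (shTet3), relative to the non-targeting Scrambled control shRNA (shScr). They were chosen by 3 conditions on the BS values: an autosomal CpG with a coverage of at least 20 calls in all 4 BS libraries, a mean level in shTet3 at least 10 percentage points above that in shScr, and both shTet3 values above both shScr values. Of 757812 CpGs listed, 743279 were autosomal and 497953 had the coverage, and 1008 of these met all conditions, a background rate of 0.202%. Since the BS values chose these CpGs, their gain in BS is a description and not a result. The oxidative bisulphite (oxBS) libraries were not used by the rule and are where the gain can be examined.

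BS sequencing reads 5mC and 5hmC alike as C. In oxBS sequencing, 5hmC is first oxidised with potassium perruthenate and then reads as T, so that only 5mC remains as C. A gain of 5mC would therefore appear in both kinds of library, whereas a gain of 5hmC alone would appear in BS only. In reduced representation libraries the genome is cut with MspI at CCGG, which favours CpG-rich DNA such as promoters.

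The cells came from neural differentiation of A2lox.cre ES cells of the mouse, a line derived from the male E14 line of strain 129P2/OlaHsd, in which clones carry one doxycycline-inducible shRNA. The sample labels do not say which *Tet3* shRNA was expressed, and the study's text names Tet3-2 shRNA for its methylation data. All groups received doxycycline at 2 µg/ml for 5 days, and 100 ng of DNA entered each preparation. There were 2 replicates of shScr and 2 of shTet3, each with a BS and an oxBS library, 8 libraries in all. BS and oxBS libraries of equal replicate number are taken here to come from the same DNA, which the labels do not state. On that reading an oxBS library was a separate preparation from its BS library but not a separate culture. Nothing in the labels says whether the replicates were separate differentiations or clones. No RNA was measured in these files, so the knockdown of *Tet3* could not be checked here. Promoters of the NPC genes *Sox2*, *Nes* and *Tubb3* had mean oxBS levels of at most 6.57% in every library, and that of *Pax6* between 24.5% and 41.1%. Among ES cell genes, the promoters of *Pou5f1* and *Tcl1* lay between 39.4% and 65.9%, that of *Zfp42* between 29.7% and 57.6% and that of *Esrrb* between 3.99% and 11.2%. None of these promoters held a CpG with gain in BS, and those of *Sox1* and *Nanog* had no CpG covered by 10 calls in all oxBS libraries.

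The libraries held 42516767 to 61865967 calls, with a median coverage of 43 to 54 calls per CpG. A level of 25% at a coverage of 20 calls has a 95% Wilson interval of 11.2% to 46.9%, which narrows to 16.8% to 35.5% at 80 calls. Since reads carry no molecular identifier and can be copies of one molecule, intervals and tests on calls cover counting error only. Of the 1008 CpGs, 980 had at least 10 calls in each oxBS library and 28 did not.

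The stretches of DNA on which the description turns are given first, read from the forward strand of NCBIM37 (mm9), with each CpG with gain in BS in capitals. The first set shows how these CpGs lay among neighbours that did not meet the rule. In the longest, in an intron of *Commd1* and 1088 to 1313 bp from the start site of the imprinted gene *Zrsr1*, 10 of the 14 CpGs listed were members. The *Arhgap9* stretch had 8 of 17, the *Basp1* stretch 7 of 10, the *Kif6* stretch 4 of 4 and the *Mmp14* stretch 4 of 13. The *Cdkn1c* stretch had 5 of 13, and the intergenic stretch on chromosome 15, which is shown because its oxBS levels were lower with shTet3, had 4 of 7.
Commd1 intron near Zrsr1, chr11:22871902-22872128: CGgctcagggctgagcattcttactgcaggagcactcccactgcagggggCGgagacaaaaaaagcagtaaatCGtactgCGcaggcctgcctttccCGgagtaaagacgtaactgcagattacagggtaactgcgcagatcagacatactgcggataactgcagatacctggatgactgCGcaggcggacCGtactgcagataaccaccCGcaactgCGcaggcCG
Arhgap9, chr10:126763496-126763679: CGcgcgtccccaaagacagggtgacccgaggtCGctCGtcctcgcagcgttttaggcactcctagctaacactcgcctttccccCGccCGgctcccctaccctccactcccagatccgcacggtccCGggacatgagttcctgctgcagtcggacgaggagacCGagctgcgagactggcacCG
Basp1 coding exon, chr15:25294103-25294171: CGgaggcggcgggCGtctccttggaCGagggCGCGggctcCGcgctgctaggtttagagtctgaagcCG
Kif6 intron, chr17:50006702-50006784: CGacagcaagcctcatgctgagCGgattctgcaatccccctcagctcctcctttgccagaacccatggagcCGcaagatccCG
Mmp14 intron, chr14:55051179-55051283: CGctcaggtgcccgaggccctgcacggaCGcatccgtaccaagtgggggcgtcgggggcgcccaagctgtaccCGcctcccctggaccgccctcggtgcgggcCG
Cdkn1c coding exon and intron, chr7:150645112-150645241: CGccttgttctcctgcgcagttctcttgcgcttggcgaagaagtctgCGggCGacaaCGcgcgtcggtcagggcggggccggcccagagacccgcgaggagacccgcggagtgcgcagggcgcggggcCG
intergenic, chr15:82037899-82037932: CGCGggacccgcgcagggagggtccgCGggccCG

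The second set gives single CpGs, each with 20 bases on either side. The first 6 are CpGs whose gain was also called in oxBS, and the last 3 are among the 5 with the lowest oxBS difference.
Zbed3 coding exon, chr13:96106240-96106281: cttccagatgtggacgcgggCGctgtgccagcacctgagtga
Spred2 intron, chr11:19853150-19853191: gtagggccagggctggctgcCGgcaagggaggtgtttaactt
Cldn5 promoter, chr16:18777414-18777455: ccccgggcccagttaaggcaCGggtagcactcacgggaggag
Lama5 promoter, chr2:179960798-179960839: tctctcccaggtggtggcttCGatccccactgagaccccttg
intergenic near Cdh3, chr8:109031728-109031769: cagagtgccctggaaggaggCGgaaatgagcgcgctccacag
Sall2 coding exon, chr14:52935209-52935250: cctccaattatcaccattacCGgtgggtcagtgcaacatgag
Elavl2 intron, chr4:91019989-91020030: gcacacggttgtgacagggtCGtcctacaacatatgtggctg
Cldn26 intron, chr16:8416165-8416206: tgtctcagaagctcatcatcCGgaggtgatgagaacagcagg
intergenic near Cxcr4, chr1:130463690-130463731: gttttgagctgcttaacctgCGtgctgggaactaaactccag

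In BS the 2 shScr replicates had mean levels of 21.6% and 23.2% over the 1008 CpGs, and the 2 shTet3 replicates 36.5% and 36.7%. In oxBS the same CpGs had 29.2% and 30.4% with shScr against 26.4% and 29.0% with shTet3. The order of the groups was thus turned in oxBS, with a group mean of 29.8% ± 0.814 for shScr against 27.7% ± 1.81 for shTet3 (SD, n = 2 each). With 2 replicates against 2, a two-sided exact permutation test cannot give a p below 0.33, so these group means carry no test. Over all 497953 eligible CpGs, shTet3 was lower than shScr in both kinds of library, with 21% ± 0.121 against 27.4% ± 3.19 in BS and 20.7% ± 0.0789 against 27% ± 3.27 in oxBS (SD, n = 2 each). In oxBS both shTet3 libraries thus lay below both controls at the CpGs with gain as well, by less than over the eligible CpGs. The control replicates themselves differed, by more over the eligible CpGs (25.1% and 29.6% in BS) than over the CpGs with gain.

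**Figure D1:**
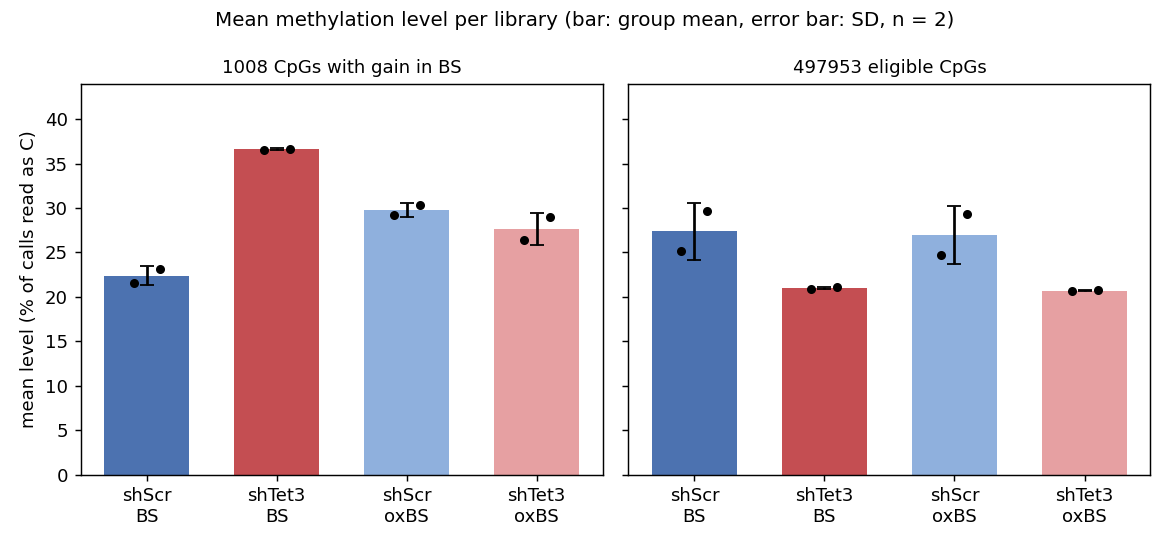
Mean methylation level (percent of calls read as C, vertical axis) in each of the 8 libraries, for the 1008 CpGs with gain in BS (left) and the 497953 eligible CpGs (right); bars are group means, error bars the SD and points the 2 replicates. The BS gain of the chosen CpGs, which the rule fixed, was absent in oxBS, where shTet3 stood at 27.7% and shScr at 29.8%.

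Between BS and oxBS libraries of equal replicate number, taken as 1 culture, the levels of these CpGs also stood apart. The mean difference, BS minus oxBS, was -7.60 points in shScr replicate 1 and -7.20 points in shScr replicate 2, so that BS read lower. It was 10.2 and 7.74 points for shTet3, where BS read higher. Over all eligible CpGs the same differences were between 0.258 and 0.451 points in the 4 cultures. In the shScr replicates 69.7% and 72.4% of the chosen CpGs had BS below oxBS. These differences contain the BS values that chose the CpGs, so that their signs are not independent of the rule, and they bear on no cause.

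CpG by CpG, 433 of 980 (44.2%) had a higher mean level in shTet3 in oxBS, 544 were lower and 3 equal. Among all 491568 eligible CpGs with this coverage, 15.1% were higher. The oxBS difference, shTet3 minus shScr, had a median of -1.18 points and quartiles of -7.91 and 4.60, and it ranged from -47.0 to 27.3 points, against a median BS gain of 13 points. The median oxBS difference lay close to 0 and moved with single libraries, to -0.130 points without shScr replicate 2, to -0.180 without shTet3 replicate 1 and to -2.43 without shTet3 replicate 2, and at CpGs with a BS coverage of at least 40 it was 0.0312 points. The median over all eligible CpGs was -0.382 points, where 32.1% of CpGs had the same level in both shRNAs, and the mean was -6.29 points against -2.18 for the CpGs with gain.

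The oxBS values of both shTet3 replicates exceeded those of both controls at 120 CpGs (12.2%, background 2.13%), and both lay below at 183 (18.7%, background 25.5%). The order of the 2 counts turned only at the deepest coverage. Where the lowest BS coverage was 20 to 40 calls, 59 lay above (9.95%, eligible 1.83%) and 131 below (22.1%, eligible 28.5%). At 40 to 80 calls 43 lay above (12.7%, eligible 2.05%) and 50 below (14.8%, eligible 26.1%). At 80 calls or more 18 lay above (36.7%, eligible 2.90%) and 2 below (4.08%, eligible 17.9%). Over all CpGs with 40 calls or more, 61 lay above and 52 below. At 59 of the 980 CpGs (6.02%, background 0.228%) the whole rule, a difference of 10 points included, was met in oxBS as well. As hyper-DMPs in oxBS (a pooled difference over 10 points with q < 0.01 in a logistic regression on the calls, Benjamini-Hochberg adjusted over all 662455 CpGs tested, of which 0.0814% were called) 27 of 980 (2.76%) passed, and 0.0787% of the eligible CpGs did. As hypo-DMPs, with a fall of the same size, 50 passed (5.10%, background 15.2%). Of the 27 hyper-DMPs, 16 had both shTet3 replicates above both shScr replicates. Without 1 oxBS library at a time, 13 to 19 of these 27 were still called. None of the 27 passed an F test with overdispersion, which takes in the spread between replicates (0 of 980 called, 4 at an unadjusted p under 0.05). With 2 residual degrees of freedom, q < 0.01 over 662455 CpGs was out of practical reach even for replicates that were alike. The 0 therefore does not show that the calls failed through disagreement of replicates. The regression on calls does not include the spread between replicates, which in oxBS was wide at the 980 CpGs. The 2 shScr replicates differed by a median of 11.1 points and the 2 shTet3 replicates by 7.57.

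**Figure D2:**
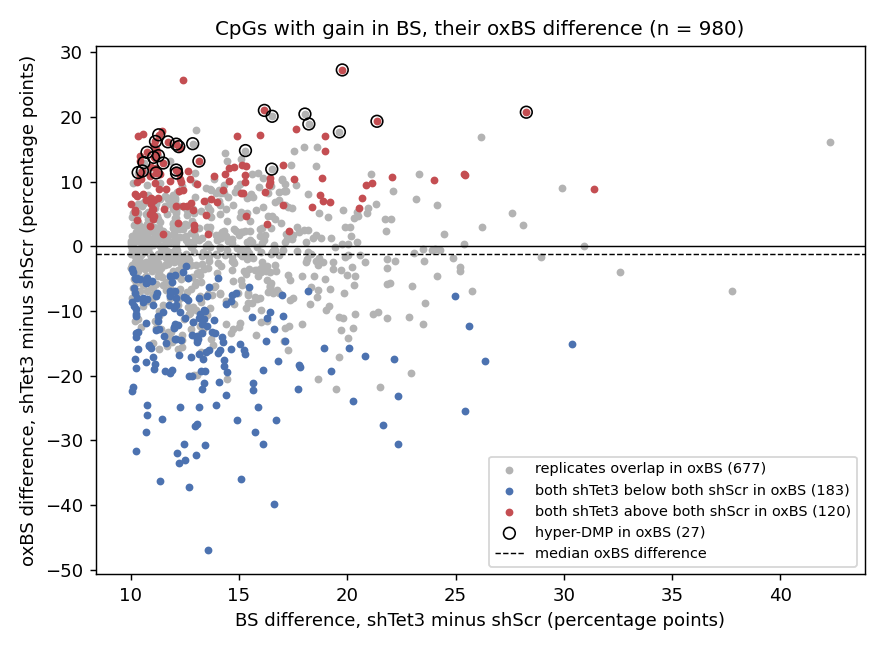
Difference between shTet3 and shScr in percentage points in BS (horizontal axis, 10 or more by the rule) and in oxBS (vertical axis) for the 980 CpGs with gain in BS covered in oxBS; red and blue mark the 120 and 183 CpGs at which both shTet3 oxBS replicates lay above or below both controls, and circles the 27 hyper-DMPs. The cloud is centred near 0 in oxBS, with a median of -1.18 points, and does not rise along the BS gain.

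A larger BS gain did not go with a larger oxBS difference. For gains of 10 to 15 points, 43.3% of 658 CpGs were higher in oxBS, for 15 to 20 points 46.8% of 235, and for 20 to 30 points 43.2% of 81. Of the 6 CpGs with a gain of 30 points or more, 3 were higher. Across the 980 CpGs Pearson's r was 0.0287 and Spearman's rank correlation 0.00435, as a description over CpGs that share libraries and, in part, reads. In the BS calls themselves, 203 of the 1008 were hyper-DMPs (20.1%, background 0.058%), a count that rests on the values of the rule. Of the 200 with oxBS coverage, 117 were higher in oxBS, 42 had both replicates above and 17 were hyper-DMPs there. Among the other 780, 316 were higher, 78 had both replicates above and 10 were hyper-DMPs.

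Coverage went with the oxBS outcome. Among CpGs whose lowest BS coverage was 20 to 40 calls, 40.3% of 593 were higher in oxBS (eligible CpGs of this coverage 12.9%) and 2 were hyper-DMPs. At 40 to 80 calls, 45.3% of 338 were higher (eligible 14.8%) with 14 hyper-DMPs. At 80 calls or more, 41 of 49 were higher (83.7%, eligible 20.1%), 18 had both replicates above (36.7%, eligible 2.90%) and 11 were hyper-DMPs, and the median oxBS difference was 5.46 points beside a median BS gain of 12. Outside the imprinted genes listed further on, 33 of 41 CpGs of this coverage were higher and 11 had both replicates above. The median lowest BS coverage of the CpGs with gain was 33 calls, against 47 for all eligible CpGs, so most of them lay at the shallow end.

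The share also varied with the level of the CpG. Where the mean BS level was under 10%, 54.4% of 103 were higher in oxBS (eligible 19.9%). The share was 46.4% of 293 at 10 to 20%, 47.3% of 353 at 20 to 40% and 40.8% of 130 at 40 to 60%, and the shares of the eligible CpGs at these levels were 27.2%, 15.5% and 5.37%. At 60% and above 20.8% of 101 were higher (eligible 4.37%), and the median oxBS difference there was -8.91 points.

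CpGs with gain that lay close together were more often higher in oxBS than those that lay alone, a description without a test, since CpGs of a region share reads. Joined at gaps of up to 100 bp, the 1008 CpGs formed 764 groups: 629 lay alone, 164 in pairs and 215 in 53 regions of at least 3, the largest with 10. Of those alone, 38.4% of 609 were higher in oxBS, with 56 having both replicates above and a median difference of -2.32 points. In pairs 42.7% of 164 were higher. In the regions 62.3% of 207 were higher, 43 had both replicates above and 13 both below, 15 were hyper-DMPs and the median was 2.43 points. Region members with a lowest BS coverage of at least 40 were higher in 84 of 117 cases, with 32 above in both replicates and 4 below, and those with 20 to 40 calls in 45 of 90, with 11 above and 9 below. CpGs alone with at least 40 calls were higher in 87 of 213. Outside the listed imprinted genes, 109 of 183 region members were higher, with 30 above in both replicates and 4 hyper-DMPs.

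**Figure D3:**
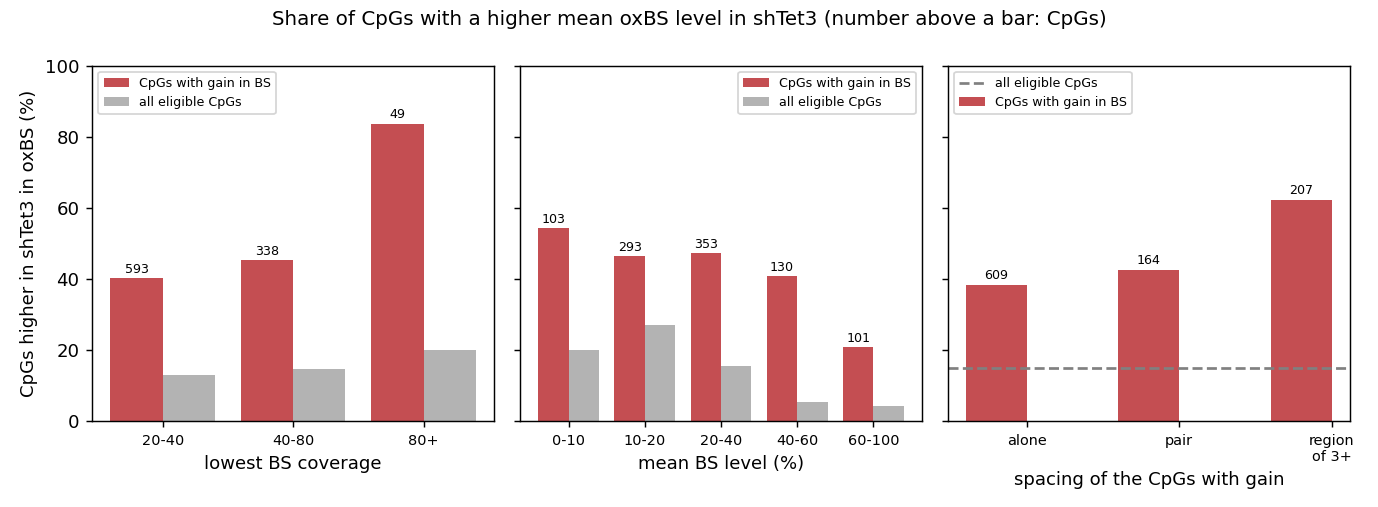
Percent of CpGs with a higher mean oxBS level in shTet3 (vertical axis) by lowest BS coverage in calls, by mean BS level and by spacing; red bars are the CpGs with gain in BS, with their number above each bar, and grey bars or the dashed line all eligible CpGs. The share reached 83.7% at a coverage of 80 or more and 62.3% in regions, against 38.4% for CpGs alone.

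Neighbours that the rule did not choose followed the same order. Eligible CpGs that were not members and lay within 100 bp of a region member were higher in oxBS in 56.0% of 534 cases, with a median difference of 0.988 points, and 65.5% had a higher mean level in BS. Within 100 bp of a CpG alone or in a pair, 36.4% of 5176 were higher in oxBS, and among all eligible CpGs that were not members 15% were. Neighbours share reads with the CpGs beside them, so these are not independent counts.

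At the level of regions, a mean was taken over the member CpGs in each library. In 10 of the 53 regions both shTet3 oxBS means lay above both shScr means, in 3 both lay below and in 40 the replicates overlapped. No share over comparable stretches of eligible CpGs was computed, so the counts of regions here have no background beside them. The shares given above for single CpGs do not apply to means over several CpGs. With the mean taken over every CpG listed in a region, chosen or not, 6 of the 10 were still above and 2 of the 3 still below. The other 4 of the 10 (the second *Tacc2* region, *Mmp14*, *Mapk8ip1* and *Hapln4*) overlapped. The *Nrg2* region, which overlapped over its members, lay above in this way, so that 7 regions did. The mean oxBS difference was above 0 in 30 regions and at least 10 points in 4, and 6 regions held a hyper-DMP and 4 a hypo-DMP. One of the 10, in a coding exon of *Neurl1a*, had no member with 10 calls in every oxBS library.

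The region with most members lay in *Commd1*, whose intron holds the imprinted retrogene *Zrsr1*, at chr11:22871902-22872127. Its BS means were 17.5% and 9.79% with shScr against 32.6% and 25.4% with shTet3, and its oxBS means 17.7% and 14.9% with shScr against 27.1% and 23.0% with shTet3. The groups did not overlap in oxBS or, as the rule fixed, in BS. The oxBS group means were 16.3% ± 1.95 and 25% ± 2.90 (SD, n = 2). All 9 members with oxBS coverage were higher there with both replicates above, and 4 were hyper-DMPs. Of these 4, 3 were still called without shScr replicate 2 and all 4 without any other single oxBS library.

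The region in the promoter of *Mcts2*, an imprinted retrogene inside *H13*, at chr2:152512807-152512884, had 7 members among 8 CpGs listed, and all 7 were hyper-DMPs in oxBS. Its control replicates stood far apart in both libraries, at 33.2% and 8.94% in BS and 32.2% and 12.8% in oxBS. The shTet3 means were 36.5% and 37.4% in BS and 47.6% and 30.8% in oxBS. The oxBS groups therefore overlapped, since shScr replicate 1 lay above shTet3 replicate 2, although the pooled calls passed the test. Only 2 of the 7 had both replicates above. None of the 7 was called without shScr replicate 2 and 2 without shTet3 replicate 1, whereas all 7 were called without either of the other oxBS libraries.

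Of the other regions with most members, the *Tacc2* promoter (chr7:137836122-137836257), of a centrosome-associated coiled-coil protein, had 9 members and 8 higher in oxBS. Its oxBS means were 44.2% and 20.9% with shScr against 30.8% and 48.6% with shTet3, which overlapped. A second *Tacc2* region (chr7:137836364-137836444), with 4 members, had oxBS means of 41.8% and 24.2% with shScr against 44.8% and 42.8% with shTet3. There both shTet3 means lay above both controls over the 4 members, but over all 7 CpGs listed the means were 48.0% and 24.2% with shScr against 46.8% and 41.2% with shTet3, which overlapped.

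A coding exon and intron of *Arhgap9*, a GTPase-activating protein gene (chr10:126763496-126763678), had 8 members, all higher in oxBS and 1 of them a hyper-DMP. Its oxBS means were 7.88% and 22.3% with shScr against 15.9% and 30.7% with shTet3. The replicate with number 2 was the higher one in each group, and the groups overlapped. *Sh2b3*, a signalling adaptor gene (chr5:122278703-122278914), had 6 members, 5 higher and 1 a hyper-DMP, with oxBS means of 21.6% and 39.4% with shScr against 36.4% and 38.3% with shTet3. Here too the groups overlapped.

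In *Basp1*, which encodes a growth cone membrane protein, the 7 members of a coding exon (chr15:25294103-25294170) had BS means of 10.3% and 16.2% with shScr against 35.8% and 30.9% with shTet3, the largest mean gain among the 12 regions with most members. The oxBS means were 14.4% and 34.5% with shScr against 27.4% and 25% with shTet3, with both shTet3 replicates between the controls. *Cdkn1c*, an imprinted inhibitor of cyclin-dependent kinases (chr7:150645112-150645240), had 5 members with BS means of 6.77% and 5.74% with shScr against 20.1% and 24.7% with shTet3. Its oxBS means were 21% and 16.2% with shScr against 15.6% and 18.4% with shTet3. The separation in BS, which the rule fixed, thus had no counterpart in oxBS. The *Msh4* promoter, of a meiotic member of the MutS family, was alike, with oxBS means of 61.3% and 48.1% with shScr against 57.5% and 49.8% with shTet3. *Fam129c* had 4 of 6 members higher in oxBS, with oxBS means of 21.7% and 22.4% with shScr against 13.9% and 33.7% with shTet3.

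An intronic region of *Nrg2*, a neuregulin ligand of ErbB receptors, had 6 of 6 members higher in oxBS. Its oxBS means were 16.8% and 5.77% with shScr against 15.7% and 20.4% with shTet3, which overlapped. Over all 9 CpGs listed they were 14.6% and 5.31% with shScr against 14.9% and 19.4% with shTet3, narrowly without overlap. A region 29158 to 29207 bp from the start of *Lmnb1*, a lamin gene, had 19.6% and 30.4% with shScr against 29.4% and 29.4% with shTet3, with 3 of 5 members higher.

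The promoter region of *Tagln3*, a neuronal calponin-family gene (chr16:45724551-45724632), went the other way. Its 6 members had BS means of 10.5% and 19.7% with shScr against 26.5% and 32.2% with shTet3, but oxBS means of 15.8% and 41.1% with shScr against 13% and 15.2% with shTet3. None of the 6 was higher in oxBS and 1 was a hypo-DMP. The intergenic region on chromosome 15 had BS means of 38.2% and 28.6% with shScr against 51.4% and 54.2% with shTet3, and oxBS means of 61.2% and 59.6% with shScr against 41.7% and 47.9% with shTet3, with 2 hypo-DMPs. In both regions the 2 kinds of library put the shRNAs in opposite orders with no overlap, where the rule fixed the order in BS.

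Among smaller regions, the *Kif6* intron, of a kinesin gene, had oxBS means of 35.7% and 31.4% with shScr against 40.6% and 46.1% with shTet3. The *Mmp14* intron, of a membrane-bound matrix metalloproteinase gene, had 10.1% and 9.33% with shScr against 11.2% and 18.6% with shTet3. The *Hoxc9* promoter, of a posterior homeobox gene, had 13.7% and 12% with shScr against 21.2% and 15.2% with shTet3. Over the members of these 3 regions both shTet3 replicates lay above both controls in oxBS, as they did in BS by the rule. Over all 13 CpGs listed in the *Mmp14* stretch the oxBS means were 7.42% and 7.24% with shScr against 5.76% and 11.2% with shTet3, which overlapped.

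**Figure D4:**
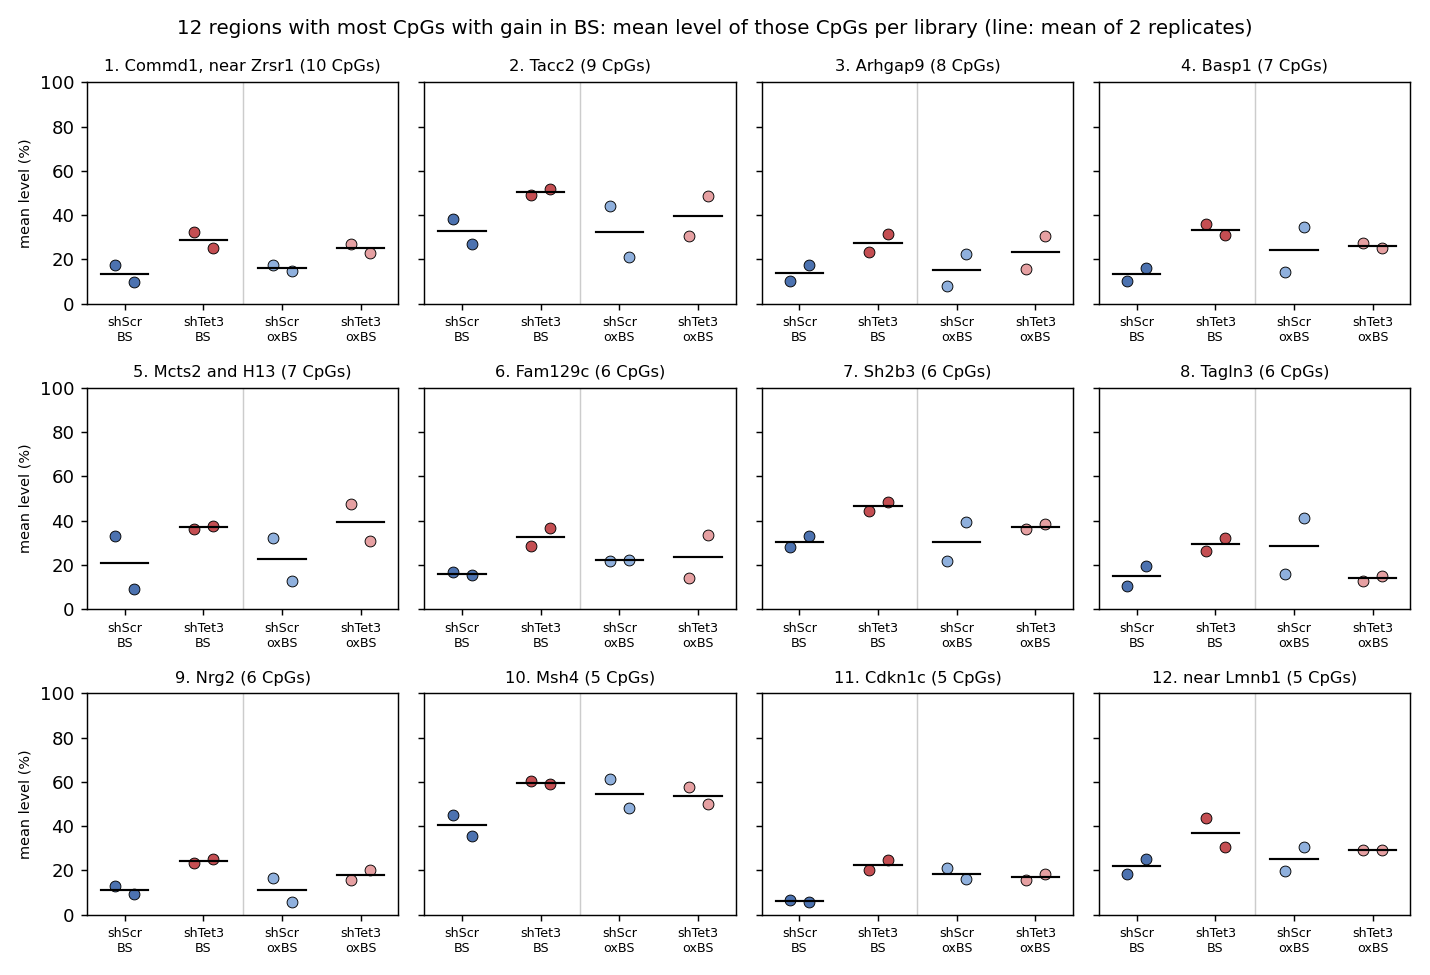
Mean level (percent, vertical axis) of the CpGs with gain in BS in each library, for the 12 regions with most of them; points are replicates and lines the mean of 2. In oxBS the groups were apart upwards in the Commd1 region and downwards in Tagln3 and overlapped in the other 10.

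Single CpGs outside these 12 regions that were hyper-DMPs in oxBS with both replicates above numbered 9 when 1 per gene was kept. The largest lay in a coding exon of *Zbed3*, a zinc finger protein of Wnt signalling, at chr13:96106260. Its oxBS levels were 34.7% and 59.5% with shScr against 69.5% and 79.2% with shTet3, a pooled difference of 27.2 points (q = 8.5e-06 by the likelihood ratio test, Benjamini-Hochberg adjusted). Its BS levels were 44.9% and 71.1% with shScr against 75.6% and 80% with shTet3. In both kinds of library the control replicates stood far apart. The groups did not overlap in oxBS or, as the rule fixed, in BS.

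In an intron of *Spred2*, an inhibitor of Ras and MAP kinase signalling, at chr11:19853170, oxBS levels were 19% and 27.1% with shScr against 37.9% and 49.5% with shTet3, a pooled difference of 21.7 points. The *Kif6* CpG at chr17:50006773 had 38.9% and 26.9% with shScr against 55.3% and 49.1% with shTet3. In the promoter of *Cldn5*, a tight junction gene, at chr16:18777434, the levels were 4.84% and 18.4% with shScr against 32.9% and 21.1% with shTet3. At all 3 the groups were apart, with the narrowest gap at *Cldn5*.

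The remaining 5 rose by 11.1 to 14.3 points in the pooled oxBS calls. The *Lama5* promoter, of a laminin chain, at chr2:179960818, had 9.20% and 10.2% with shScr against 21.5% and 23.7% with shTet3. *Sall2*, a spalt-like transcription factor gene, at chr14:52935229, had 6.45% and 3.53% with shScr against 14.8% and 17.9% with shTet3. In both, the oxBS replicates of each shRNA lay close together relative to the distance between the shRNAs. A CpG 3043 bp from the start of *Cdh3*, a cadherin gene, at chr8:109031748, had 14.5% and 21.2% with shScr against 24.9% and 34.5% with shTet3, and the others lay in the *B930007M17Rik* promoter and the *Mmp14* intron. The calls of these 9 CpGs rested on few libraries: 2 of the 9 were still called without shScr replicate 1, 6 without shScr replicate 2, 5 without shTet3 replicate 1 and 4 without shTet3 replicate 2.

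The 5 CpGs with the largest BS gain were in *Banp*, *Znhit3*, *Shroom3*, *Basp1* and *Dos*, with gains of 42.3, 37.8, 32.6, 31.4 and 30.9 points, and none was called in oxBS. At the *Banp* CpG, chr8:124530897, oxBS levels were 15.4% and 59.1% with shScr against 55.2% and 51.4% with shTet3 (q = 0.62). At the *Znhit3* CpG they were 28.6% and 37.5% with shScr against 37.8% and 14.3% with shTet3. At the *Shroom3* CpG, in a gene of neural tube morphogenesis, they were 91.7% and 44.4% with shScr against 68.2% and 60% with shTet3. The control replicates in oxBS overlapped or enclosed the shTet3 values in these 3. Each control oxBS level there rested on 12 to 22 calls, too few for a missing call to show that a gain was absent. Of the 5, the *Basp1* CpG alone had both shTet3 oxBS values (32.4% and 27.5%) above both controls (15.6% and 26.7%).

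The 5 lowest oxBS differences were all hypo-DMPs with both replicates below. In an intron of *Elavl2*, a neuronal RNA-binding protein gene, at chr4:91020009, oxBS levels were 42.2% and 77.5% with shScr against 16.7% and 9.09% with shTet3 (q = 3.3e-07), while the BS levels were 24.6% and 26.7% with shScr against 31.8% and 46.7% with shTet3. The CpGs in *Cldn26*, *Adam33*, an intergenic site 25157 bp from the start of *Cxcr4* and a site in *Nrg2* had oxBS differences of -39.8, -37.2, -36.2 and -35.9 points. At the *Cxcr4* site BS levels were 64.1% and 64.5% with shScr against 78.6% and 72.7% with shTet3, and oxBS levels 89.3% and 86.5% with shScr against 53.3% and 50% with shTet3. In none of the 5 was the BS gain itself called.

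At the threshold, the 3 members with the smallest mean gains (10.001 to 10.016 points) were in *Tacc2*, near *Pou4f1* and in *2010002N04Rik*, with oxBS differences of 0.799, -3.29 and -1.20 points. Just outside, at 9.988 to 9.998 points, were CpGs in *Brf1*, *Cnn3* and *Bik*, with oxBS differences of -18.9, 12.6 and -3.13 points.

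The CpGs with gain in BS were less often in promoters than the eligible CpGs. Promoters, from 1 kb upstream to 0.5 kb downstream of start sites of protein-coding genes, held 31.3% of them against 50.8%. Coding exons held 23.1% against 11.9%, introns 21.6% against 17.4% and intergenic DNA 18.5% against 16.6%. UTRs and noncoding genes held 2.78% each, against 1.65% and 1.73%. Neighbouring CpGs share reads, so the shares carry no test. The 2 sets were also not matched in level. The mean BS level had a median of 23.3% for the CpGs with gain and 2.03% for the eligible ones. Within promoters 45% of 307 were higher in oxBS (eligible 18.1%), within coding exons 39.4% of 221 (15.3%), within introns 49.1% of 216 (11.3%) and in intergenic DNA 42.9% of 182 (9.60%).

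**Figure D5:**
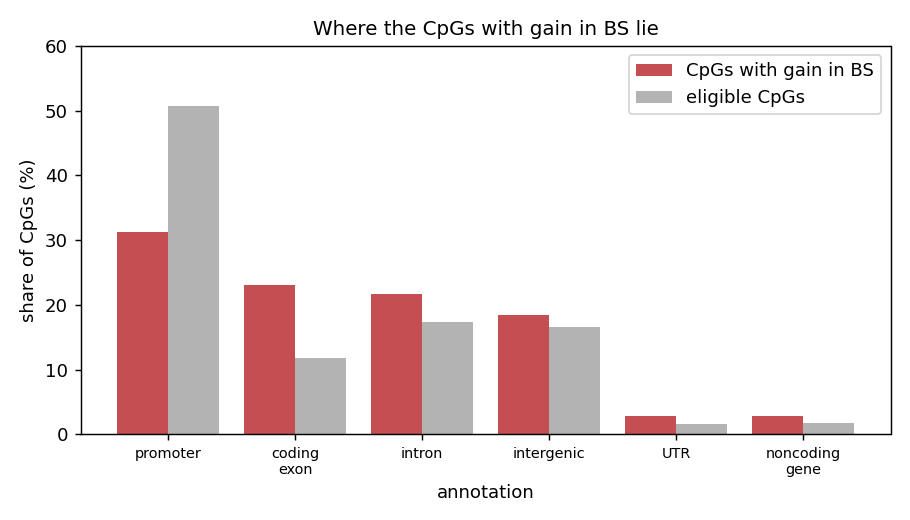
Share of CpGs (percent, vertical axis) by annotation for the 1008 CpGs with gain in BS (red) and the 497953 eligible CpGs (grey). Promoters held 31.3% of the CpGs with gain against 50.8%, and coding exons 23.1% against 11.9%.

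In level the CpGs were intermediate. The rule fixed this in part, since the level is a mean of the 4 BS values that chose the CpGs. A mean BS level of 10 to 40% was found for 302 at 10 to 20% and 367 at 20 to 40%, which hold 3.74% and 6.14% of the eligible CpGs but 30% and 36.4% of those with gain. The surrounding 500 bp had a median GC content of 62.8% and a median ratio of observed to expected CpGs of 0.680. The medians over all eligible CpGs were 62.6% and 0.733, and over eligible CpGs with a mean BS level of 10 to 60% they were 55.4% and 0.454. This last set is not matched in level, with a median of 41.1% against 23.3% for the CpGs with gain. The median distance to a start site was 2078 bp against 548 bp. A CpG within the MspI site CCGG made up 19.7% of them and 21.2% of the eligible CpGs. By chromosome, the rate per 100 eligible CpGs ran from 0.148 on chromosome 3 to 0.331 on chromosome 18.

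Genes with a member in the promoter or body numbered 611, of which 463 held 1 and 64 held 3 or more. Imprinted genes, whose parental alleles carry different methylation, held 35 members in 10 of the 43 listed genes with eligible CpGs, which is 3.47% of the CpGs with gain and 0.269% of the eligible ones. In oxBS 27 of their 33 covered members were higher, 14 had both replicates above, 1 had both below and 12 were hyper-DMPs, and the median oxBS difference was 10.2 points. Of the 12, 8 were in *H13*, 7 of which lie in the *Mcts2* promoter, and 4 in *Commd1*. Without shScr replicate 2, 4 of the 12 were still called. It was 7 without shTet3 replicate 1 and 11 without either of the others. The F test with overdispersion, which could hardly call any CpG here, gave 0. *Cdkn1c*, with 9 members, had 4 higher and a median oxBS difference of -0.833 points. *Plagl1* had 2 members, both higher, with control oxBS means of 35.9% and 70.5%, and *Inpp5f* had 2, of which 1 was higher. Imprinted genes had been named among the gains in earlier results of these data, so this list is not independent evidence. Outside the list, 406 of 947 members were higher in oxBS, 106 had both replicates above and 15 were hyper-DMPs.

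Regulators of neural progenitors and neurogenesis held 11 members in 8 of 51 genes, 1.09% of the CpGs with gain and 0.624% of the eligible ones. In oxBS 6 were higher, none had both replicates above and 2 had both below, with a median difference of 0.589 points. *Otx2*, a forebrain and midbrain homeobox gene, had 3 members with BS means of 23.9% and 21.9% with shScr against 34.8% and 35.8% with shTet3, and oxBS means of 33.2% and 16.7% with shScr against 26.9% and 23.0% with shTet3. *Irx5* had 2 members, and *Dlx2*, *Emx1*, *En1*, *Gsx2*, *Lhx2* and *Pax7* had 1 each. None was a hyper-DMP.

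Pluripotency genes held 2 members (0.198% of the CpGs with gain, 0.102% of the eligible ones), both in *Prdm14*, with oxBS means of 64.5% and 54.7% with shScr against 45.7% and 46.8% with shTet3 against a gain in BS. Of the enzymes that write and remove DNA methylation, *Tet2* held 1 member, with an oxBS difference of -7.14 points, and *Tet3* held none. The 1 germline member, in *Dazl*, an RNA-binding protein gene of germ cells, had oxBS levels of 1.89% and 9.09% with shScr against 10.9% and 27.9% with shTet3, with both replicates above and no call. Hox genes held 9 members, 4 higher in oxBS and 2 with both replicates above, of which 4 members lay in *Hoxc9*, and clustered protocadherins held 3 (1 higher). These were 0.893% and 0.298% of the CpGs with gain, against 0.241% and 0.0715% of the eligible ones. Wnt pathway genes held 3 (2 higher) and Zfp zinc finger genes 11 (5 higher, 1 above in both replicates), or 0.298% and 1.09% against 0.514% and 1.45%. Axon guidance genes held 6 members (0.595% against 0.682%), 3 of them higher with both replicates above: the CpG of *Efna3*, an ephrin ligand gene, had oxBS levels of 28.1% and 15% with shScr against 42.9% and 35.0% with shTet3 and was not called, and the others lay in *Ephb2* and *Epha8*. No member in any list but that of imprinted genes was a hyper-DMP in oxBS.

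The same rule applied to the oxBS libraries in place of BS chose 1131 of 508129 CpGs. Of the 1068 covered in BS, 41.5% were higher in shTet3 in BS, 11.5% had both replicates above and the median BS difference was -1.88 points, close to the 44.2%, 12.2% and -1.18 points found in the other direction. The sets shared 49 CpGs among 446406 eligible in both, which is 6.07% of the 807 with gain in BS and 5.79% of the 846 with gain in oxBS. For scale, 0.202% of all eligible CpGs had gain in BS. With at least 10 oxBS calls, 0.228% of the eligible CpGs met the same conditions in oxBS. The mirror rule for loss in BS gave 106578 CpGs covered in oxBS, of which 96.0% were lower there, 65.1% had both replicates below and the median was -17.4 points. Of all eligible CpGs 52.8% were lower in oxBS. Of those with a mean BS level of 40 to 60% or of 60% and above, 94.6% and 95.6% were. The share for loss lay near these shares. They are not a separate background, since the eligible CpGs include those with loss, whose levels were not compared.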

How the data were processed

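oxRRBS libraries of NPCs (2 shRNAs, 2 replicates, BS and oxBS) were grouped by their sample labels. According to the methods and the submitters' processing notes, the authors trimmed reads with Trim Galore (RRBS option), aligned them to mm9 with Bismark and bowtie2 and called methylation. For every library they deposited the coverage of each CpG, an unnormalized count of calls, beside the percent of these calls that read C or T. Methylated calls were recovered as coverage times percent. All 757812 CpGs listed had at least 5 calls in every library and were forward-strand CG in NCBIM37.

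The rule was applied to the percentages with unweighted replicate means. DMPs were called by a logistic regression of calls on the shRNA (likelihood ratio test, Benjamini-Hochberg over all CpGs with at least 10 calls in the 4 libraries, q < 0.01, pooled difference over 10 points), after the thresholds the study gives for its DMPs from methylKit, and the code was tested on simulated data. Python 3.11.15, NumPy 2.4.6, SciPy 1.17.1 and pandas 2.3.3 were used, with GENCODE vM1 for genes. A member belongs to a gene by promoter, exon or intron. *Fgfr2* is not named, since its model in this annotation runs over *Tacc2*. No p was computed over the members.

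Regions were named as the 12 with most members (gaps up to 100 bp, at least 3 members), with ties ordered by mean BS gain, which left 2 other regions of 5 members out. Single CpGs were named as up to 10 oxBS hyper-DMPs with both replicates above and outside those regions, the 5 largest BS gains, the 5 lowest oxBS differences and 3 on each side of the threshold; for gene lists, the genes with most members. The regions of *Kif6*, *Mmp14*, *Hoxc9*, *Neurl1a*, the second *Tacc2* region and that on chromosome 15 were picked after their values were seen. The members and lists were chosen with earlier results of these data known. Alternatives were other coverage minimums, removal of the deepest CpGs, each oxBS library left out, stricter rules, other tests and, added after seeing the data, removal of the listed imprinted genes.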

Additional observations from a re-analysis of the deposited data

Results flagged for a closer look

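In 3 regions of at least 3 CpGs the BS and oxBS libraries put the shRNAs in opposite orders without overlap of the replicates; the difference between the kinds of library was not tested. The mean oxBS differences were -14.4 points in the *Tagln3* promoter, -15.6 points in the intergenic region on chromosome 15 and -5.55 points in a region of the noncoding gene *Gm3764* on chromosome 3. In the last, BS means were 9.65% and 10.2% with shScr against 20% and 21.8% with shTet3, and oxBS means 23.9% and 19.6% with shScr against 17.5% and 14.8% with shTet3. Over all 4 CpGs listed in that region of *Gm3764* the oxBS means overlapped, at 21% and 16.3% with shScr against 17.9% and 14.2% with shTet3. Over the 980 single CpGs, 183 had this pattern (18.7%), where the rule fixed the order in BS. Among all eligible CpGs, 25.5% had both shTet3 oxBS values below both controls, so the pattern's oxBS order was less common at the CpGs with gain than in the background.

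The X chromosome was outside the rule. With the same BS thresholds, 32 of 6206 covered CpGs met it (0.516%, against 0.202% on the autosomes). Of 30 covered in oxBS, 9 were higher there and 3 had both replicates above, with a median oxBS difference of -3.31 points. On the Y chromosome 2 of 42 met it.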

How the results depend on the processing

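Coverage, 2 replicates and shared DNA limit these results: a level at the median lowest BS coverage of 33 calls has a wide interval, and BS and oxBS libraries share cultures, so that oxBS does not examine the gain in other cultures. Against 27 hyper-DMPs at q below 0.01, 44 passed at q below 0.05 and 15 lay outside the listed imprinted genes. An F test with overdispersion passed 0 (4 at an unadjusted p under 0.05 with a difference over 10 points). It has 2 residual degrees of freedom and could hardly reach this q at any CpG, so its 0 is uninformative. Fisher's exact test gave 24 and unweighted means 27.

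The labels do not say whether equal replicate numbers pair shScr with shTet3, and correlations over CpGs cannot show how the cultures were run. Departures of same-numbered shScr and shTet3 libraries from their groups correlated at -0.0397 in BS and -0.0460 in oxBS over CpGs. Those of BS and oxBS libraries of equal replicate number, taken as the same DNA, correlated at 0.571 in shScr and 0.295 in shTet3. Over the 980 CpGs with gain these were 0.449 and 0.148. The replicate block gave 27 hyper-DMPs, with median oxBS differences of -1.13 and -0.0596 points in pairs 1 and 2.

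With a BS gain of at least 20 points there were 87 CpGs, with 38 higher in oxBS, 11 above in both replicates and 2 hyper-DMPs. With a BS coverage of at least 40 there were 387, with 194 higher, 61 above in both replicates and a median of 0.0312 points. Leaving out 1 oxBS library at a time gave 26 to 34 hyper-DMPs, in part at other CpGs, 380 to 484 CpGs higher, a median of -2.43 to -0.130 points and, as fewer values had to be in order, 216 to 337 with every shTet3 value above every shScr value. At least 5 members per region left 14 of 53 regions. Promoters of -2 kb to +1 kb held 43.6% of the CpGs with gain and 58.4% of the eligible ones. Of the 53 values computed under alternatives, 39 stayed within 1.5 times the count or 1 SD of the median, and the other 14 are those given above.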
